A study of Mus musculus with 192 samples.

Results

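Acute-phase and antimicrobial proteins are made in quantity when tissues meet microbes, and 7 mouse genes for such proteins were followed here across every condition of the series: Saa3, Lcn2, S100a8, S100a9, Slpi, Lyz1 and Lyz2. The genes were taken by name from the table of counts, not by a threshold on measured values, though earlier results of these data were known. They are 7 of the 23481 genes in the table, and all 7 were among the 4720 genes with enough counts to be tested.

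Saa3 is a serum amyloid A protein that is made outside the liver by macrophages and other cells, and Lcn2 (lipocalin 2) binds the siderophores with which bacteria take up iron. S100a8 and S100a9 form calprotectin, which binds zinc and manganese and is abundant in neutrophils. Slpi (secretory leukocyte peptidase inhibitor) blocks the serine proteases that neutrophils release. Lyz1 and Lyz2 encode lysozymes, enzymes that cut the peptidoglycan of bacterial walls, and Lyz2 is a common marker of the myeloid lineage.

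The cells were dendritic cells derived from bone marrow, which present antigen to T cells. They were grown from female C57BL/6J mice aged 6 to 8 weeks, in medium with 15 ng/mL GM-CSF, a growth factor for myeloid cells. Every group shares this genotype and this culture. A well of 100000 cells was left without ligand (Ctrl) or was given 1, 2 or 3 of 7 ligands of innate immune receptors for 6 hours. The ligands are PAM, LPS (lipopolysaccharide), HMW, Zymosan (zymosan depleted, per the labels), SeV, cGAMP (a cyclic dinucleotide) and CpGB, and no dose was used here. With Ctrl, 7 single ligands, 21 pairs and 35 triplets there are 64 groups of 3 libraries. Nothing in the labels says that the 3 libraries of a group came from separate animals or cultures, so the p-values measure only the spread between these libraries, which may be technical.

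Totals of unique molecular identifiers (UMIs, each marking 1 cDNA molecule) ran from 46564 to 610234 per library, with a median of 171616, and the Ctrl libraries held 73431 ± 14389 (SD, n = 3). Levels are given below in CPM (UMIs scaled to a common library total) as mean ± SD of 3 libraries, and fold changes on the log2 scale. Of 9 dendritic cell markers, H2-Aa, H2-Ab1, Cd74 and Itgax were present in every library, while Flt3, Zbtb46 and Cd209a had 95, 99 and 3 UMIs over all libraries. By the root mean square log2 distance over 778 well expressed genes, 94 libraries lay nearer to the mean of another group (3 libraries) than to the mean of the other 2 of their own. Of these 94, 8 libraries in 7 of the triplet groups did so by 0.16 to 0.207, where the next library stood at 0.11. By correlation over all tested genes, 26 libraries were most like their own group. The 8 were replicate 1 of HMW + cGAMP + CpGB, HMW + SeV + cGAMP, Zymosan + SeV + cGAMP and HMW + SeV + CpGB, replicates 1 and 2 of PAM + HMW + Zymosan, and replicate 3 of PAM + HMW + SeV and LPS + SeV + CpGB. Whether libraries were exchanged was not tested. These 8 libraries were kept, and results that rest on them are given with and without them.

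In GRCm38.p6, the build that matches the mm10 named in the submitters' processing notes, RefSeq places Saa3 at chr7:46711998-46719615, Lcn2 at chr2:32384637-32387739 and Slpi at chr2:164354070-164356507, all on the minus strand. S100a8 (plus strand, chr3:90669071-90670034) and S100a9 (minus strand, chr3:90692630-90695721) lie 22595 bp apart. Lyz2 (chr10:117277541-117282272) and Lyz1 (chr10:117287795-117292868) lie on the minus strand with 5522 bp between them. The sequences below are the 250 bases before the RefSeq start of the 3 genes whose levels moved most, 5′ to 3′ on the gene's strand, and capitals mark every match on either strand to TTNNGNAA, a loose form of the site of C/EBP factors.
Saa3, chr7:46715677-46715926: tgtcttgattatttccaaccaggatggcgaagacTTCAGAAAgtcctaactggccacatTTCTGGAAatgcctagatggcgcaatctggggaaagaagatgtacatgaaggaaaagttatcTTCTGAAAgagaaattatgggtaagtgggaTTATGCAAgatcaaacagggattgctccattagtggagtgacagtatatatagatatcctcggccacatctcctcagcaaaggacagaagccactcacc
Lcn2, chr2:32387740-32387989: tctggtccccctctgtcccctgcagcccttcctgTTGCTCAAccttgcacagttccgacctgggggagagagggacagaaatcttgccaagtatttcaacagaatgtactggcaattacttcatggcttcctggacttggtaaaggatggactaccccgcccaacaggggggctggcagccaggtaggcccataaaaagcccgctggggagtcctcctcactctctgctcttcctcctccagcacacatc
Slpi, chr2:164356508-164356757: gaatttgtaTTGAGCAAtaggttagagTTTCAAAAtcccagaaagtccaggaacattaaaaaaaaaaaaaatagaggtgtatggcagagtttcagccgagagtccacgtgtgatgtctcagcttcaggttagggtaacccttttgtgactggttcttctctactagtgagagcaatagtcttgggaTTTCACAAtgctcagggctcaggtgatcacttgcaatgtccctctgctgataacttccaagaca
The start used for Saa3 lies inside the gene's full span. Saa3 held 4 matches, Slpi 3 and Lcn2 1, the windows of the other 4 genes held 1 or 2 each, and 36.9% of 32841 RefSeq promoter windows of the same length held at least 1. GAAA, any 2 bases and GAAA again, a core of interferon response elements, was found once in Saa3 and in none of the other 6 genes, against 2.98% of windows. No window of the 7 genes matched the consensus of the NF-kappaB site, which 7.25% of windows held, and TATAAA stood only in S100a8, against 12.4%. A match is a run of letters and no measure of binding.

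Saa3 made the largest log2 changes of the 7 genes, and it rose with PAM, CpGB and LPS. Its level in Ctrl was 360, 461 and 384 CPM in replicates 1, 2 and 3 (402 ± 53.0). With PAM it was 12899, 10734 and 12479 CPM (12037 ± 1148), with CpGB 9102, 6658 and 7055 (7605 ± 1312) and with LPS 5099, 4073 and 3754 (4309 ± 703). Every library of these 3 groups lay far above every Ctrl library. PAM raised Saa3 by 4.90 on the log2 scale (SE 0.25, adjusted p = 4.38e-53), a 29.9-fold rise. The rise was 4.23 with CpGB (SE 0.25, adjusted p = 6.27e-44, 18.8-fold) and 3.42 with LPS (SE 0.25, adjusted p = 9.88e-33, 10.7-fold). In a bulk library, a change in the share of cells that make a transcript and a change in the amount each cell makes cannot be told apart.

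None of the other 4 ligands passed against Ctrl for Saa3. It stood at 542 ± 88.9 CPM with Zymosan, 412 ± 53.8 with SeV, 353 ± 25.8 with HMW and 321 ± 66.0 with cGAMP. The Zymosan libraries (644, 486 and 495 CPM) all lay above Ctrl, but the difference of 0.41 did not pass the test (adjusted p = 0.448). In the order of levels, PAM stood above CpGB (adjusted p = 0.00124), CpGB above LPS (adjusted p = 8.73e-05) and LPS above Zymosan (adjusted p = 5.64e-33). No neighbours further down this order differed, with adjusted p from 0.261 between Zymosan and SeV to 0.996 between SeV and Ctrl. Further apart, Saa3 was higher with Zymosan than with cGAMP (0.74, adjusted p = 0.0193). Of all comparisons of 1 gene between 2 single ligands, 18.8% passed this threshold.

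**Figure D1:**
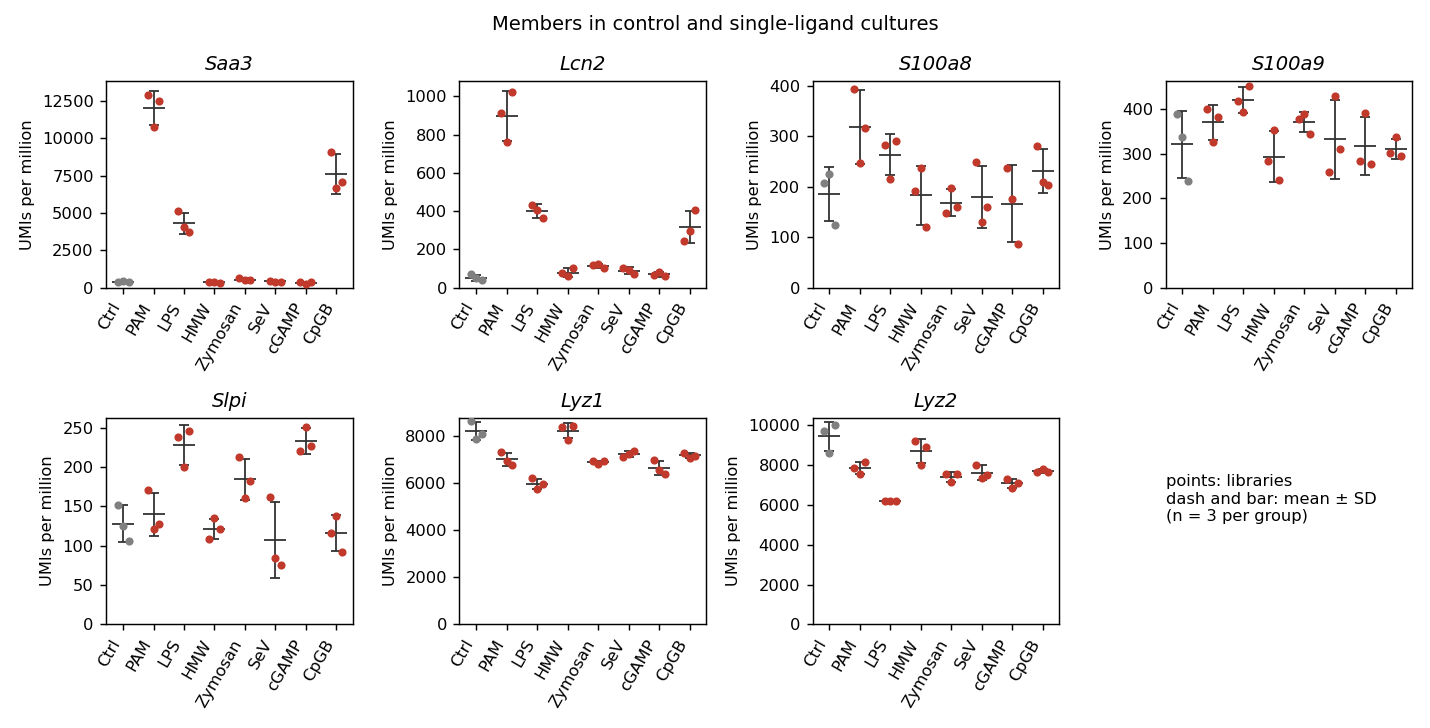
Level of each of the 7 genes (CPM, linear axis from 0) in Ctrl and with each single ligand; points are libraries, and the dash and bar are the mean ± SD of 3. Saa3 and Lcn2 are high with PAM, LPS and CpGB, S100a8 lies highest with PAM and S100a9 with LPS, and both lysozymes are lower with LPS than in Ctrl.

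A gene was called higher than Ctrl where the adjusted p was under 0.05, with a log2 fold change of at least 1. Over the 63 conditions, Saa3 was called in 49, which are all 49 conditions with at least 1 of PAM, LPS and CpGB, and by edgeR in 0 of the 14 without, where 0 also passed an unadjusted p under 0.05. DESeq2 also called 49 conditions. The background is 14.3% of all gene and condition tests called higher. For the single ligands, 8.01% of the tested genes were called higher with PAM, 14.6% with LPS and, with CpGB, 10.8%. For the ligands that left Saa3 uncalled, the share of genes called in either direction was 0.975% with HMW, 6.25% with Zymosan, 15.6% with SeV and 17.6% with cGAMP. The 15 groups without PAM, LPS and CpGB had means from 321 to 604 CPM (median 407), and the 49 groups with them from 1553 to 12038 (median 4348). Single libraries of the first kind reached at most 855 CPM and those of the second started at 1393, so the groups did not overlap. These classes were formed with the values known and carry no test.

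Among combinations, PAM + HMW had the highest mean of Saa3, with 12412, 11216 and 12485 CPM (12038 ± 713), where PAM alone had 12037. HMW + Zymosan + cGAMP had the lowest, with 405, 284 and 338 CPM (342 ± 61.0). PAM did not add to CpGB or LPS as their single effects would sum: PAM + CpGB stood at 11574 ± 232 CPM and PAM + LPS at 10335 ± 2218. PAM + LPS + CpGB, with 8323, 5471 and 7696 CPM (7163 ± 1498), lay between LPS and PAM. Its 3 libraries all lay below those of PAM alone. In the highest triplet with a library that stands apart, PAM + HMW + SeV, replicate 3 held 16345 CPM against 8385 and 6453 in replicates 1 and 2. Its log2 rise over Ctrl was 4.70 with that library and 4.31 without it.

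**Figure D2:**
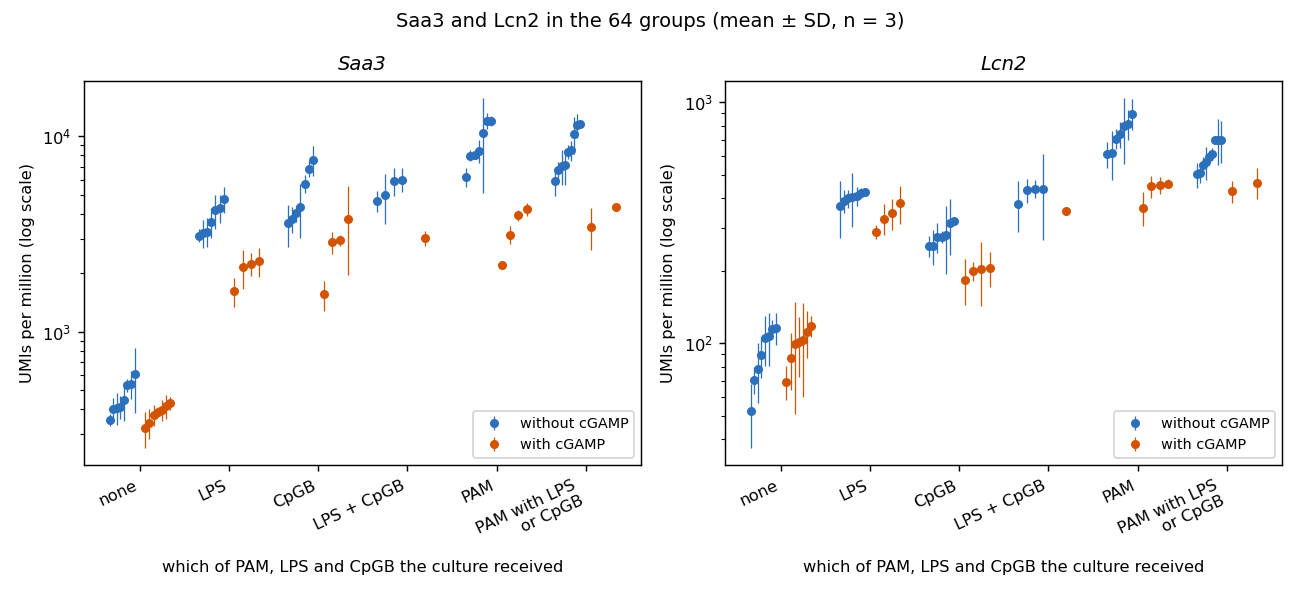
Mean ± SD (n = 3, log axis, CPM) of Saa3 and Lcn2 in the 64 groups, arranged by which of PAM, LPS and CpGB the cells received and split by cGAMP. For Saa3, groups with cGAMP (orange) lie lower than most groups without it (blue) in the columns with PAM, LPS or CpGB. The column of PAM with LPS or CpGB also holds PAM + LPS + CpGB, which has no counterpart with cGAMP. For Lcn2 the gap is smaller.

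cGAMP lowered Saa3 wherever PAM, LPS or CpGB had raised it. On PAM, whose level is given above, the addition of cGAMP left 3671, 3992 and 4169 CPM (3944 ± 253). This is a fall by 1.61 on the log2 scale (SE 0.16, adjusted p = 8.28e-17), with no overlap of libraries. On CpGB the level with cGAMP was 3243, 2530 and 2832 CPM (a fall by 1.40, adjusted p = 1.83e-12), and on LPS 2486, 1903 and 2284 CPM (a fall by 0.95, adjusted p = 1.32e-05). The fall passed the test in all 15 of the backgrounds with PAM, LPS or CpGB to which cGAMP was added, and every library with cGAMP lay below every library without it. Of the 7 backgrounds without them, 1 passed (HMW + Zymosan, 342 against 532 CPM, adjusted p = 0.0389). The largest fall was 1.86, on PAM + Zymosan, from 7971 to 2193 CPM.

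Averaged over the 22 backgrounds to which each ligand was added, the change of Saa3 was 2.32 with PAM (SE 0.041, adjusted p = 8.69e-130, upward in 22 of 22 backgrounds). CpGB gave 1.69 (adjusted p = 4.86e-102, upward in 19) and LPS gave 1.28 (adjusted p = 1.29e-80, upward in 13). Where PAM or CpGB was already present, LPS shifted Saa3 by a median of -0.22. cGAMP gave -0.93 (SE 0.043, adjusted p = 1.42e-53, downward in 20 of 22), a 1.9-fold lower level. Average changes were called at an adjusted p under 0.05 and a size of at least 0.5, which these 4 passed. The shares of all tested genes called in this way were 12.4% with PAM, 26% with LPS, 24.6% with cGAMP and 11.2% with CpGB. Zymosan lowered Saa3 by a smaller amount (-0.34, adjusted p = 2.8e-12), downward in all 15 backgrounds with PAM, LPS or CpGB. SeV gave -0.17 (adjusted p = 0.000595), downward in 13 of those 15. HMW gave -0.01 (adjusted p = 0.934). The called shares for these 3 were 12.4% (Zymosan), 10.5% (SeV) and 0.381% (HMW). Without the 8 libraries that stand apart, the averages were 2.31, 1.70, 1.31 and -0.93 for PAM, CpGB, LPS and cGAMP.

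**Figure D3:**
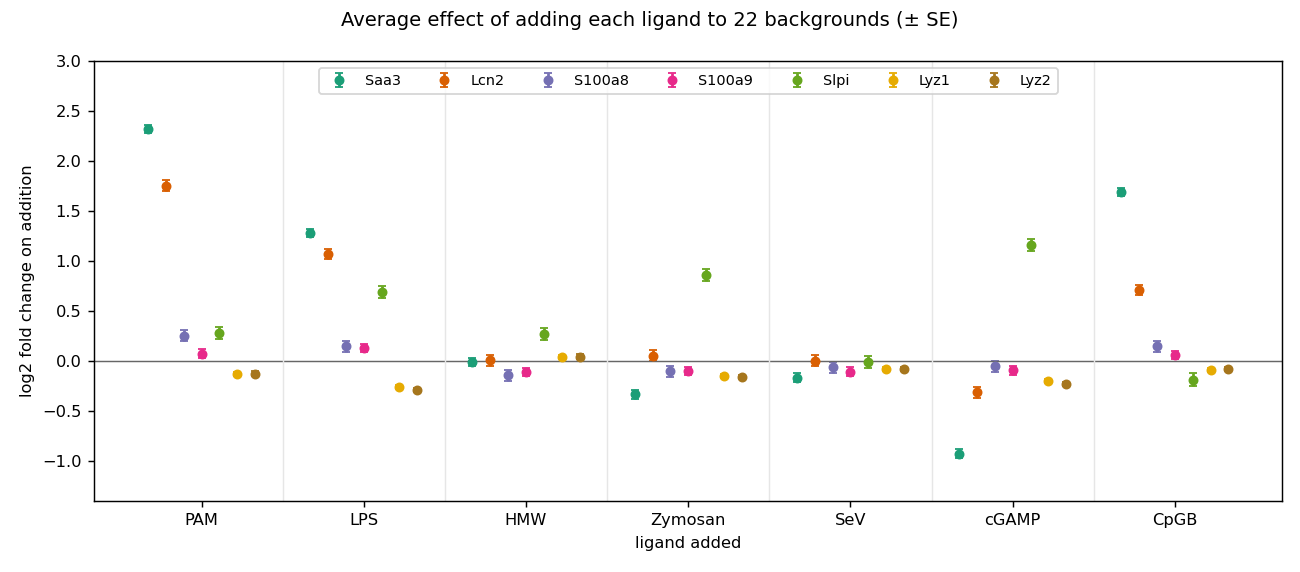
Average log2 change of each of the 7 genes (± SE) when a ligand was added to the 22 groups that could take it. Saa3 lies highest with PAM, CpGB and LPS and lowest with cGAMP, whereas Slpi lies highest with cGAMP and Zymosan.

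Lcn2 rose with the same 3 ligands, with LPS ahead of CpGB in mean level. In Ctrl it held 69.3, 49.9 and 38.4 CPM (52.5 ± 15.6). With PAM it held 912, 759 and 1022 CPM (898 ± 132), with LPS 432, 405 and 362 (400 ± 34.9) and with CpGB 243, 296 and 406 (315 ± 83.2). All of these libraries lay above Ctrl, and PAM also lay above LPS and CpGB without overlap. The log2 rise was 4.12 with PAM (SE 0.43, adjusted p = 3.43e-29, 17.4-fold), 2.95 with LPS (SE 0.44, adjusted p = 3.82e-14, 7.71-fold) and 2.67 with CpGB (SE 0.44, adjusted p = 4.74e-11, 6.36-fold). PAM exceeded LPS (adjusted p = 8.29e-10) and CpGB exceeded Zymosan (adjusted p = 7.96e-08), but LPS and CpGB did not differ beyond their spread (adjusted p = 0.48). Zymosan (120, 122 and 103 CPM) lay above Ctrl in every library without passing the test (1.14, adjusted p = 0.0828). The lower levels of SeV (89.1 CPM), HMW (78.5), cGAMP (69.1) and Ctrl did not differ between neighbours.

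Lcn2 was called higher in 52 of the 63 conditions, where 14.3% of all gene and condition tests were called higher. The 52 include all 49 with PAM, LPS or CpGB. The other 3 were Zymosan + SeV, Zymosan + cGAMP and SeV + cGAMP, at 116, 112 and 118 CPM. Groups without PAM, LPS and CpGB spanned 52.5 to 118 CPM and groups with them 184 to 898, classes that carry no test here either. Among combinations PAM + HMW was highest (800, 707 and 937 CPM) and HMW + SeV lowest (70.9, 61.2 and 79.5 CPM). The average change was 1.76 with PAM (adjusted p = 8.88e-95), 1.07 with LPS (adjusted p = 1.25e-54) and 0.71 with CpGB (adjusted p = 8.5e-30). The last 2 depend on the background: where PAM or LPS was already present, CpGB was downward in 8 of 11 cases (median -0.07), and where PAM or CpGB was present, LPS had a median of 0.04. cGAMP gave -0.31 (adjusted p = 2.86e-07), under the size needed for a call, and the change was downward in all 15 backgrounds with PAM, LPS or CpGB. Zymosan (0.05), HMW (0.00) and SeV (0.00) did not pass the test. Without the 8 libraries that stand apart, Lcn2 was also called in Zymosan + SeV + cGAMP (1.35, adjusted p = 0.018), which stood at 0.95 (adjusted p = 0.105) with all libraries, and 56 conditions were called in all.

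The effects of PAM, LPS and CpGB on Saa3 and Lcn2 did not add up on the log2 scale. A pair interaction is the log2 effect of the pair against Ctrl minus the sum of its single effects, so 0 stands for additive log2 effects. For Saa3 it was -4.29 for PAM + CpGB (SE 0.30, adjusted p = 6.25e-33), -3.75 for LPS + CpGB (adjusted p = 1.32e-26) and -3.63 for PAM + LPS (adjusted p = 1.55e-25). For Lcn2 it was -3.58 for PAM + LPS (adjusted p = 8.92e-16), -3.03 for PAM + CpGB (adjusted p = 4.93e-11) and -2.53 for LPS + CpGB (adjusted p = 1.76e-07). Over the 7 genes and 21 pairs, 11 of 147 interactions were negative and 2 positive, where 3.5% and 1.08% of all gene and pair tests were. The remaining negative ones were 4 of Saa3 (Zymosan + CpGB, PAM + cGAMP, cGAMP + CpGB and PAM + Zymosan, from -1.49 to -1.0) and PAM + LPS for S100a8 (-1.11). No pair was called below both single ligands (at least 1 lower than each on the log2 scale), a call that 0.0504% of all tests met.

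Three-way interactions set the triplet against what its singles and pairs give. They were positive in 4 of 245 cases and negative in 0, where 0.803% and 0.13% of all tests were called. The positive ones were Saa3 and Lcn2 with PAM + LPS + CpGB (3.27, adjusted p = 1.4e-13, and 2.82, adjusted p = 2.77e-06) and Saa3 with PAM + Zymosan + CpGB and with LPS + Zymosan + CpGB (1.61 and 1.52). None of these triplets exceeded its pairs: 0 of 245 cases were above all 3 pairs and 0 below, against 0.0115% and 0% of all tests. Without the 8 libraries that stand apart, 14 pair interactions were negative and 7 three-way interactions positive, which include the 4 above. Leaving out 1 replicate of every group gave 7 to 11 negative pair and 2 to 4 positive three-way interactions. The 6 pair interactions between PAM, LPS and CpGB, that of Zymosan + CpGB for Saa3 and both three-way interactions of PAM + LPS + CpGB were kept in all 9 other fits run. Without replicate 1 or without replicate 3 of every group, PAM + LPS for S100a8 and cGAMP + CpGB, PAM + cGAMP and PAM + Zymosan for Saa3 were lost. Scaling also ended these calls. With RLE factors PAM + LPS for S100a8 (adjusted p = 0.0622) and cGAMP + CpGB (0.0601) and PAM + Zymosan (0.117) for Saa3 were lost, with library size alone PAM + Zymosan (0.101), and after thinning PAM + LPS for S100a8 (0.179) and PAM + cGAMP (0.152) and cGAMP + CpGB (0.301) for Saa3. The three-way interaction of LPS + Zymosan + CpGB was lost without replicate 2 or 3, and that of PAM + Zymosan + CpGB without replicate 3.

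S100a8 and S100a9 had small log2 changes that reached no call against Ctrl. S100a8 held 208, 225 and 125 CPM in Ctrl (186 ± 53.4) and 394, 246 and 317 with PAM (319 ± 73.7). The PAM libraries all lay above Ctrl, by 0.80 (SE 0.29, adjusted p = 0.0334), which is under the fold needed for a call, and 9.68% of the tested genes passed upward with PAM by adjusted p alone. LPS gave 263 ± 41.0 CPM (0.55, adjusted p = 0.155). S100a8 was called in 0 of 63 conditions by edgeR and in 0 by DESeq2. With edgeR, 1 (PAM) passed by adjusted p alone and 3 at an unadjusted p under 0.05. Its highest combination was PAM + CpGB (344, 200 and 296 CPM) and its lowest HMW + cGAMP (104, 138 and 158 CPM), and neither differed from Ctrl (adjusted p = 0.167 and 0.366). Without the replicate 2 libraries the PAM rise was 1.18 (adjusted p = 0.00425), without replicate 2 of PAM alone 1.02 (adjusted p = 0.00844) and without that of Ctrl alone 1.02 (adjusted p = 0.0234), each a call. Averaged over backgrounds, the change of S100a8 was 0.25 with PAM (adjusted p = 2.59e-05), 0.15 with LPS and 0.15 with CpGB (adjusted p = 0.0159 and 0.0266), all under the size for a call. PAM missed after thinning (0.18, adjusted p = 0.106), and LPS and CpGB with library size alone (0.01 and 0.08), after thinning and without replicate 3 of every group. LPS also missed with RLE factors and without replicate 1 of every group.

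S100a9 held 388, 337 and 240 CPM in Ctrl (322 ± 75.1) and was highest with LPS, at 417, 393 and 452 CPM (421 ± 29.4). The LPS libraries lay above Ctrl but the difference of 0.43 did not pass (adjusted p = 0.126). S100a9 was called higher in 0 of 63 conditions by edgeR and in 0 by DESeq2, and 1 was higher at an unadjusted p under 0.05 with edgeR. HMW + SeV, its lowest group at 186, 235 and 143 CPM, was lower by adjusted p alone (-0.73, adjusted p = 0.0191), where 11.8% of all gene and condition tests were. PAM + CpGB was its highest combination (429, 318 and 472 CPM, adjusted p = 0.302). Averaged over the 22 backgrounds, S100a9 passed by adjusted p with LPS (0.13, adjusted p = 0.00586), SeV (-0.11, adjusted p = 0.0361) and Zymosan (-0.10, adjusted p = 0.0438), all under the size for a call. None of these held in every fit. LPS gave -0.01 (adjusted p = 0.928) with library size alone and missed with RLE factors and without replicate 3 of every group. SeV missed without the 8 libraries that stand apart (-0.09, adjusted p = 0.1), and both SeV and Zymosan missed without the filter, after thinning, without replicate 1 or 2 of every group and without replicate 1 or 2 of Ctrl. SeV also missed without replicate 3 of every group.

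Between single ligands, 6 of the 21 comparisons passed for S100a8 and 1 for S100a9. Over all tested genes, 18.8% of such comparisons passed. S100a8 was higher with PAM than with cGAMP (0.98, adjusted p = 0.000901), SeV (adjusted p = 0.00383), Zymosan (adjusted p = 0.00429) and HMW (adjusted p = 0.00862). It was also higher with LPS than with Zymosan (adjusted p = 0.0425) and cGAMP (adjusted p = 0.0484). S100a9 was higher with LPS than with HMW (0.52, adjusted p = 0.0222). No neighbours in the order of levels differed for either gene, with adjusted p from 0.462 to 0.998.

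S100a8 made up 40% of the summed UMIs of both S100 genes over all libraries, and from 31.5% (Zymosan) to 48.3% (SeV + cGAMP + CpGB) by group. Of 11 neutrophil markers, 10 were in the table, and their sum was 522 ± 30.6 CPM in Ctrl and 348 to 564 CPM over the groups, with PAM the highest. The sum was 552 CPM with CpGB and 550 with HMW. These markers did not move alike: Retnlg (45.1 CPM) and Ltf (88.4 CPM) were highest in Ctrl, where Camp stood at 21.1 CPM and reached 75.9 elsewhere. The early granulocyte genes Elane, Mpo, Prtn3 and Ctsg were at 0 in Ctrl and summed to at most 9.22 CPM in any group, and of the lymphocyte markers Cd3e had no UMI in any library. The part of these cells in the S100a8 values was not tested.

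Slpi was highest where cGAMP and Zymosan were given together. It held 152, 125 and 106 CPM in Ctrl (128 ± 23.5). With cGAMP alone it held 220, 251 and 227 CPM (233 ± 16.4), with LPS 238, 200 and 246 (228 ± 24.9) and with Zymosan 212, 160 and 182 (184 ± 25.9). All of these libraries lay above Ctrl, yet none of the 3 groups passed the test (0.90, adjusted p = 0.0585; 0.86, adjusted p = 0.0518; 0.54, adjusted p = 0.459). Without the replicate 1 libraries cGAMP gave 1.18 (adjusted p = 0.016) and LPS 1.09 (adjusted p = 0.0201), both calls; LPS was also called without replicate 1 of Ctrl (1.04, adjusted p = 0.0463) or without its own replicate 2 (1.04, adjusted p = 0.0269). The remaining single ligands spanned 107 (SeV) to 140 CPM (PAM), and no neighbours in the order differed (adjusted p from 0.414 to 0.997). Further apart in the order, 8 of the 21 comparisons between single ligands passed, where 18.8% did over all tested genes. Slpi was higher with cGAMP than with CpGB (1.03, adjusted p = 0.00868), HMW (adjusted p = 0.0144), SeV (adjusted p = 0.0206) and PAM (adjusted p = 0.0353). It was higher with LPS than with SeV (1.20, adjusted p = 0.0042), HMW (adjusted p = 0.0119) and CpGB (adjusted p = 0.0211), and with Zymosan than with SeV (adjusted p = 0.0475).

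Zymosan + cGAMP held 767, 621 and 692 CPM of Slpi (693 ± 73.2), so every library lay above every library of either ligand alone. It exceeded cGAMP by 1.56 (SE 0.24, adjusted p = 3.17e-08) and Zymosan by 1.92 (SE 0.25, adjusted p = 2.84e-12). PAM + cGAMP, with 468, 506 and 451 CPM (475 ± 28.1), exceeded PAM by 1.78 (adjusted p = 3.6e-09) and cGAMP by 1.02 (adjusted p = 0.0011). These were the only 2 of 147 cases of the 7 genes above both single ligands by at least 1, a call that 0.353% of all tests met. The call of Zymosan + cGAMP was kept in all 9 other fits run. That of PAM + cGAMP was lost with RLE factors, with library size alone, after thinning, and without replicate 1 or 2 of every group, where its lead over cGAMP was 0.59 to 1.00. The interaction of Zymosan + cGAMP was 1.02 (SE 0.45), which did not pass the test (adjusted p = 0.407), and that of PAM + cGAMP was 0.88 (SE 0.47, adjusted p = 0.459). A sum of log2 effects was therefore not shown to be exceeded.

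Slpi was called higher in 29 of 63 conditions, 0 of 7 single ligands (2 at an unadjusted p under 0.05), 8 of 21 pairs and 21 of 35 triplets, with edgeR. The count was 24 with DESeq2, 18 when libraries were scaled by their size alone and 16 after thinning to equal totals. All 6 conditions with both cGAMP and Zymosan were called, 20 of the 32 with 1 of them and 3 of the 25 with neither. Over all gene and condition tests, 14.3% were called higher. The classes by cGAMP and Zymosan were formed with the values known and carry no test. The 26 groups with neither ligand spanned 96.6 to 271 CPM (median 157), the 16 with Zymosan alone of the 2 spanned 136 to 439 (median 258), the 16 with cGAMP alone 168 to 509 (median 304) and the 6 with both 501 to 733 (median 673). HMW + Zymosan + cGAMP was the highest of the 64 groups, with 786, 751 and 663 CPM, a rise by 2.54 over Ctrl (SE 0.35, adjusted p = 1.59e-13). SeV + CpGB was the lowest, with 65.6, 105 and 119 CPM, and did not differ from Ctrl (-0.35, adjusted p = 0.621).

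**Figure D4:**
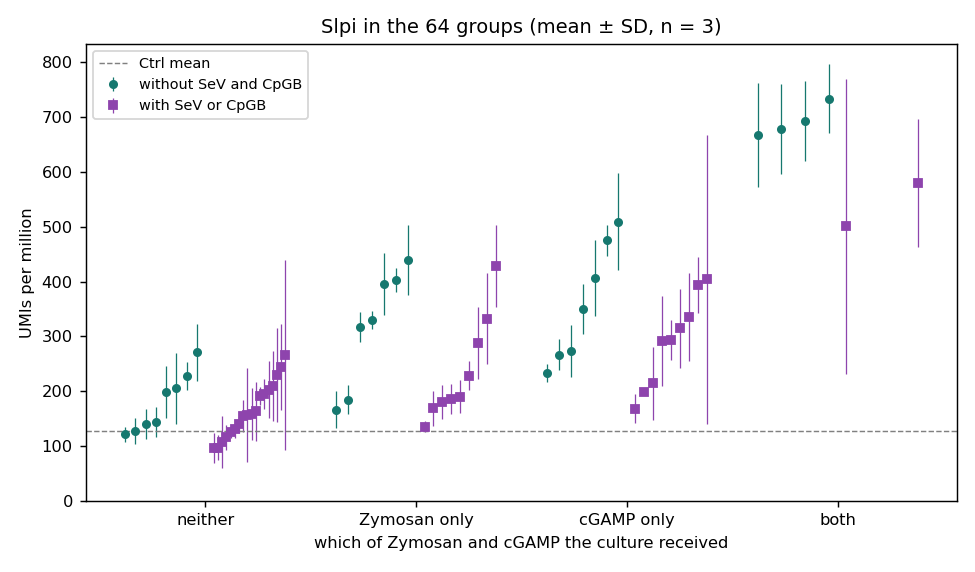
Mean ± SD (n = 3, CPM) of Slpi in the 64 groups, arranged by which of Zymosan and cGAMP the cells received; squares received SeV or CpGB as well, and the dashed line is the Ctrl mean of 128. The 6 groups with both ligands lie between 501 and 733, and the wide bars at 265, 404 and 501 are groups with a library that stands apart.

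Averaged over the 22 backgrounds, cGAMP raised Slpi by 1.16 (SE 0.060, adjusted p = 1.05e-48, upward in 21), Zymosan by 0.86 (adjusted p = 9.44e-32, upward in 22) and LPS by 0.69 (adjusted p = 9.51e-23, upward in 20). PAM (0.28, adjusted p = 4.55e-05) and HMW (0.27, adjusted p = 0.000473) raised it by less than a call needs. CpGB lowered it slightly (-0.19, adjusted p = 0.012, downward in 18 of 22), and SeV gave -0.01 (adjusted p = 0.925). The same addition of cGAMP thus lowered Saa3 and raised Slpi. On PAM, for example, Saa3 fell from 12037 to 3944 CPM while Slpi rose from 140 to 475 CPM.

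The Slpi values of 5 groups rest on libraries that stand apart. In Zymosan + SeV + cGAMP replicate 1 held 195 CPM against 610 and 698 in replicates 2 and 3, and the rise over Ctrl was 1.99 with it and 2.46 without it. In HMW + SeV + cGAMP replicate 1 held 709 CPM against 267 and 238, and the rise was 1.60 with it and 1.11 without. In PAM + HMW + SeV replicate 3 held 466 CPM against 175 and 156, and the call (1.24, adjusted p = 0.000907) was lost without it (0.50, adjusted p = 0.264). HMW + cGAMP + CpGB was called only without its replicate 1 (1.07, adjusted p = 0.00295, against 0.79, adjusted p = 0.0788). In HMW + SeV + CpGB replicate 1 held 255 CPM against 106 and 109, and the log2 change, which did not pass either way, went from 0.24 to -0.09 without it. In all, 30 conditions were called without the 8 libraries, and the averages for cGAMP, Zymosan and LPS were 1.17, 0.88 and 0.70.

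Both lysozymes were at high levels in Ctrl and lower in nearly every other group. Lyz1 held 8643, 7895 and 8113 CPM in Ctrl (8217 ± 385) and 6208, 5758 and 5951 with LPS (5972 ± 226). Lyz2 held 9696, 8631 and 10024 CPM in Ctrl (9450 ± 728) and 6193, 6185 and 6179 with LPS (6186 ± 7.07). The LPS libraries all lay below Ctrl, with a log2 change of -0.46 for Lyz1 (SE 0.092, adjusted p = 1.27e-05) and -0.61 for Lyz2 (SE 0.10, adjusted p = 1.43e-07). No change of a lysozyme reached the fold needed for a call. By adjusted p alone, cGAMP also passed for Lyz1 (6658 ± 298 CPM, -0.30, adjusted p = 0.00805) and Lyz2 (7085 ± 229 CPM, -0.42, adjusted p = 0.000716). Zymosan (-0.35, adjusted p = 0.0123), SeV (-0.31, adjusted p = 0.0182) and CpGB (-0.30, adjusted p = 0.0234) passed for Lyz2 only, a difference between the genes that was not tested. With the replicate number as a block, Zymosan also passed for Lyz1 (-0.25, adjusted p = 0.0359), and PAM for Lyz1 (-0.22, adjusted p = 0.0437) and Lyz2 (-0.27, adjusted p = 0.0221). The shares of tested genes that were lower by this rule were 12.9% with LPS, 8.16% with cGAMP, 2.86% with Zymosan, 7.25% with SeV and 8.92% with CpGB. HMW overlapped Ctrl for both genes. Without any 1 replicate of Ctrl or of the ligand the cGAMP call of Lyz1 and the SeV and CpGB calls of Lyz2 were lost, at -0.15 to -0.30. The Zymosan call of Lyz2 was lost without replicate 3 of Ctrl or any 1 Zymosan replicate (-0.27 to -0.33), and its cGAMP call without replicate 3 of Ctrl (-0.30, adjusted p = 0.0605). The LPS calls were kept in each of these fits.

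Over the 63 conditions, Lyz1 was lower by adjusted p alone in 52 and Lyz2 in 56, against 11.8% of all tests. These counts rest on the filter on low counts: without it they were 6 for Lyz1 and 19 for Lyz2. Every library lay below every Ctrl library in 62 conditions for Lyz1 and in 60 for Lyz2. All 63 comparisons use the same 3 Ctrl libraries, and the share of all genes with such a gap is not given here. The median group level of Lyz1 was 7026 CPM with 1 ligand, 6369 with 2 and 5798 with 3, and that of Lyz2 was 7621, 6950 and 6344. The lowest groups were PAM + LPS + Zymosan for Lyz1 (5213, 4741 and 5363 CPM, -0.69, adjusted p = 8.42e-11) and LPS + Zymosan + cGAMP for Lyz2 (5640, 4211 and 5870 CPM, -0.85, adjusted p = 7.87e-13). The highest combinations were PAM + HMW for Lyz1 (7354 ± 267 CPM) and HMW + CpGB for Lyz2 (8606 ± 342 CPM), and neither differed from Ctrl (adjusted p = 0.214 and 0.386). Without the 8 libraries that stand apart, 42 conditions were lower for Lyz1 and 45 for Lyz2.

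Averaged over the 22 backgrounds, LPS changed Lyz1 by -0.26 (adjusted p = 4.47e-29) and Lyz2 by -0.29 (adjusted p = 1.46e-29), downward in 22 of 22 for both. cGAMP gave -0.20 and -0.23, Zymosan -0.15 and -0.16 and PAM -0.13 for both genes, each passing by adjusted p and none reaching the size for a call. CpGB (-0.09 and -0.08) and SeV (-0.08 for both) were smaller, and HMW gave 0.04 for both (adjusted p = 0.276 and 0.244). For Lyz2 the interactions of LPS + SeV (0.42, adjusted p = 0.0435) and LPS + cGAMP (0.43, adjusted p = 0.0344) were positive, so these pairs were less low than the sum of their parts. Both of these calls were lost without the 8 libraries that stand apart, without the filter on low counts, and without replicate 1, 2 or 3 of every group.

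Because these changes are small, they depend on how libraries are scaled. Other scalings moved the median fold change of all tested genes by -0.16 (RLE factors), -0.36 (library size alone) or -0.26 (libraries thinned to equal totals), and a fit without the filter on low counts moved it by 0.24. Both lysozymes were below the median of all tested genes in 63 of 63 conditions, by a median of -0.40 for Lyz1. Other scaling factors shift all genes alike and cannot alter this distance. Thinning, which removes UMIs, put Lyz1 below it in 62 conditions and above it in 1, by a median of -0.73. Without the filter, the fall with LPS did not pass the test for Lyz1 (-0.20, adjusted p = 0.472).

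The 2 lysozymes could not be fully separated by sequence. Their transcripts in the GENCODE annotation (1263 and 1316 bases) were 96.0% identical over 1262 aligned bases, and 16.1% of the runs of 50 bases in Lyz1 also occur in Lyz2. How the authors assigned reads that match both genes is not given in the sources used here, so the split between them is uncertain. Lyz1 made up 47.6% of their summed UMIs over all libraries and 45.9% to 49.5% by group. Counted as 1 gene, their sum was lower with LPS (-0.49, adjusted p = 4.15e-06), cGAMP (-0.32, adjusted p = 0.00588) and Zymosan (-0.29, adjusted p = 0.0292). The last 100 bases before each start show the likeness, 5′ to 3′ on the minus strand, with capitals for the letters that differ.
Lyz1, chr10:117292869-117292968: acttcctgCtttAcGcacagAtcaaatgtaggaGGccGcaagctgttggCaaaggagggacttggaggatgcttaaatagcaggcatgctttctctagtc
Lyz2, chr10:117282273-117282372: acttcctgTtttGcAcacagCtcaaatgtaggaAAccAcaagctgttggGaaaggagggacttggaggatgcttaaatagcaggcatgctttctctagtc
Of these 100 bases 92 were identical and 8 differed, and over 250 bases 60.8% were identical in place without gaps. For Saa3, 3.91% of its runs of 50 bases occur in another gene, and for Lcn2, S100a8, S100a9 and Slpi 0%.

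**Figure D5:**
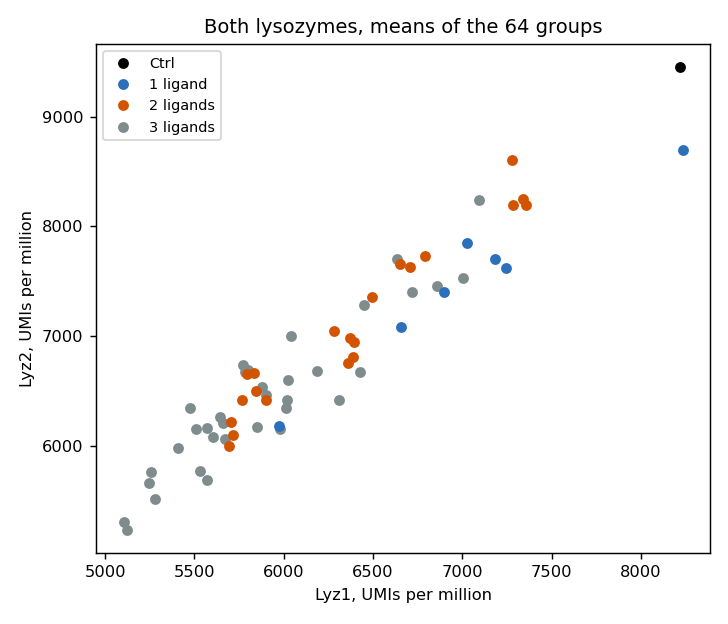
Mean level of Lyz1 (horizontal) against Lyz2 (vertical), both in CPM, in the 64 groups, coloured by the number of ligands. Ctrl lies at the upper right (8217 and 9450), most groups with 3 ligands lie at the lower left, and the 2 genes move together.

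Of 9 macrophage and monocyte markers, 8 were in the table, and their sum was 2700 ± 116 CPM in Ctrl, the highest of the 64 groups. It was 2500 CPM with HMW, 2600 with SeV, 2170 with cGAMP, 2060 with Zymosan, 1840 with PAM, 1770 with CpGB and 1660 with LPS, and lowest in LPS + cGAMP + CpGB (1100 CPM). In Ctrl, Mertk was at 0 and Csf1r made up most of the sum, at 1720 CPM, the highest of the groups. Not all markers went this way: Ly6c2 was lowest in Ctrl (30.7 CPM) and reached 684 CPM, and Fcgr1 stood at 60.7 CPM in Ctrl and reached 624 CPM. The sum of the 9 dendritic cell markers was lowest in Ctrl (5190 ± 279 CPM) and highest in PAM + LPS + SeV (8260 CPM). Within that list, Ccl22 ranged from 136 to 1540 CPM and Ccr7 from 196 to 790 CPM over the groups, while Itgax stood at 421 CPM in Ctrl and ranged from 191 to 537. The part of these shifts in the lysozyme values was not tested.

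Across the 64 groups, Saa3 moved with Lcn2 and Lyz1 with Lyz2. Pearson's r of mean log2 CPM was 0.943 for Saa3 and Lcn2, 0.953 for Lyz1 and Lyz2 and 0.588 for S100a8 and S100a9. Slpi correlated negatively with the lysozymes (r = -0.62 with Lyz1 and -0.64 with Lyz2) and only weakly with Saa3 (-0.27). These groups share ligands, so the values are descriptions. Of the 4500 tested genes that averaged 20 CPM or more, the nearest to Saa3 were Il1b (0.954), Cpd (0.953) and Ccl9 (0.95), and the nearest to Lcn2 were Cav1 (0.945), Saa3 and Il1b (0.941). S100a8 was nearest to Lcn2 (0.762), Abracl (0.753) and St3gal1 (0.752), and S100a9 to St3gal3 (0.637), Gas7 (0.603) and S100a8. Slpi was nearest to Furin (0.851), Gna13 (0.836) and Basp1 (0.807). Lyz1 was nearest to Lyz2, Lair1 (0.862) and Csf1r (0.853), and Lyz2 to Lyz1, Dok2 (0.867) and Flna (0.865).

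Other acute-phase genes rose with several ligands. Of 20 listed, 8 were tested, and 4 were called higher with PAM, 6 with LPS, 7 with CpGB, 4 with cGAMP, 3 with SeV, 2 with Zymosan and 0 with HMW, none lower. Of all tested genes, 8.01% were called higher with PAM, 14.6% with LPS, 10.8% with CpGB, 11.7% with cGAMP, 10.5% with SeV, 4.43% with Zymosan and 0.953% with HMW. Chosen after their values were seen, Hp (haptoglobin) was called with PAM and CpGB, C3 (a complement protein) with LPS, SeV, cGAMP and CpGB, and Il1rn (the interleukin-1 receptor antagonist) with every ligand but PAM and HMW. The median log2 fold change of the 8 was 2.05 with PAM, 2.40 with LPS and 1.66 with CpGB, where the medians of all tested genes were 0.03, -0.07 and -0.03. Without Hamp, which was at or under 3 UMIs in both groups of each comparison, the medians were 2.28, 2.19 and 1.67. Serpina3g, a serine protease inhibitor, rose from 84.8 ± 23.6 to 2580 ± 268 CPM with SeV (4.96, adjusted p = 1.71e-35). Il6, the cytokine that drives the acute phase in liver, rose from 126 ± 48.6 to 1340 ± 128 CPM with PAM (3.33, adjusted p = 1.12e-29). Ptx3, a long pentraxin, rose from 339 ± 42.4 to 1970 ± 285 CPM with PAM (2.54, adjusted p = 2.28e-13). Cp (ceruloplasmin, a copper-binding ferroxidase) had 3 UMIs in Ctrl and 90 with CpGB, a ratio per total of 13.2 with a 95% interval of 4.38 to 65.3 that covers counting error only. Among the serum amyloid relatives of Saa3, Saa1 had 13 UMIs and Saa2 had 0 over all libraries.

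Few of the other antimicrobial and S100 genes were called. Of the 24 listed, 20 were in the table and 13 tested, and only Cst7 with LPS and cGAMP (higher) and S100a10 with CpGB (lower) were called. The median was -0.33 with CpGB, -0.31 with PAM and -0.19 with LPS, and it ran from -0.05 with Zymosan to 0.11 with cGAMP over the other ligands. Cst7, a cystatin that inhibits lysosomal proteases, had 2 UMIs in Ctrl and 46 with LPS, a ratio of 9.25 (95% interval 2.42 to 78.6, counting error only). S100a10, a partner of annexin A2, fell from 256 ± 92.1 to 125 ± 11.5 CPM with CpGB (-1.01, adjusted p = 0.00566). The share of all tested genes called higher was 14.6% with LPS and 11.7% with cGAMP. The share called lower was 6.27% with CpGB, 5.89% with PAM, 9.6% with LPS, 5.13% with SeV and 5.91% with cGAMP.

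The few calls among iron and siderophore genes (14 listed, 9 tested) went in both directions. With LPS 1 was called higher and 2 lower, with PAM 1 was lower (Slc40a1), with SeV and with cGAMP 1 was lower (Slc11a1), with Zymosan 1 was higher (Hmox1), and with HMW and CpGB none was called. Of all tested genes, 14.6% were called higher with LPS and 4.43% with Zymosan. Called lower were 9.6% with LPS, 5.89% with PAM, 5.13% with SeV and 5.91% with cGAMP. The list as a set was not tested. Its median was -0.70 with LPS and 0.16 with PAM. Hmox1, which breaks down haem, rose from 258 ± 68.3 to 1660 ± 140 CPM with Zymosan (2.66, adjusted p = 1.32e-20). Slc11a2, an importer of iron, rose from 70.5 ± 36.9 to 152 ± 22.9 CPM with LPS (1.21, adjusted p = 0.00257), and Slc11a1, a metal transporter of phagosomes, fell from 211 ± 23.0 to 77.9 ± 23.6 CPM (-1.37, adjusted p = 0.000248). Slc40a1 (ferroportin, the iron exporter) had 12 UMIs in Ctrl and 0 with PAM, at least 9.21-fold lower when 3 UMIs over the group are taken as the floor.

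Of 11 partners and targets of these proteins, 6 were tested, and 3 were called higher with PAM, LPS and CpGB each (Cd14, Tlr2 and Fpr2) and 2 with Zymosan, SeV and cGAMP each (Tlr2 and Fpr2), with 1 lower with LPS (Scarb1), where 8.01%, 14.6%, 10.8%, 4.43%, 10.5% and 11.7% of all tested genes were called higher with PAM, LPS, CpGB, Zymosan, SeV and cGAMP. Called lower with LPS were 9.6% of all tested genes. The median of the 6 was 1.02 with PAM, 0.46 with LPS and 0.80 with CpGB. Fpr2, a receptor that serum amyloid A can engage, rose with PAM from 114 ± 9.88 to 847 ± 78.6 CPM (2.90, adjusted p = 5.14e-25). Cd14, a co-receptor for LPS, rose with PAM from 362 ± 36.0 to 2270 ± 209 CPM (2.64, adjusted p = 2.28e-32). Tlr2, the receptor for lipopeptides, rose with PAM from 69.9 ± 48.6 to 430 ± 53.4 CPM (2.53, adjusted p = 8.19e-14). Scarb1, a lipoprotein receptor that also binds serum amyloid A, fell from 56.1 ± 38.0 to 7.95 ± 7.49 CPM with LPS (-2.85, adjusted p = 0.00141).

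Of 9 transcription factors known to act on these genes, 8 were in the table and 6 tested. With PAM and LPS 4 of them were called higher, with CpGB 3, with Zymosan 1 (Cebpb, chosen after its values were seen), with SeV 1 (Stat3) and with HMW and cGAMP 0, and none lower. The shares of all tested genes called higher were 8.01% with PAM, 14.6% with LPS, 10.8% with CpGB, 4.43% with Zymosan and 10.5% with SeV. The median was 1.21 with PAM, 1.34 with LPS and 1.05 with CpGB. Nfkbiz, a nuclear co-factor of NF-kappaB known to be needed for the induction of Lcn2 in macrophages, rose from 40.5 ± 13.6 to 502 ± 86.0 CPM with CpGB (3.69, adjusted p = 3.98e-21). Cebpd rose from 35.8 ± 28.3 to 215 ± 60.1 CPM with PAM (2.45, adjusted p = 4.08e-06). Nfkb1 and Stat3 rose with LPS, from 214 ± 55.2 to 560 ± 47.0 CPM (1.38, adjusted p = 6.36e-10) and from 87.9 ± 15.9 to 219 ± 10.1 CPM (1.29, adjusted p = 0.0013).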

How the data were processed

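RNA of 64 groups of 3 libraries was sequenced. Per the submitters' processing notes, BWA 0.7.15 and the build mm10 were used; the annotation, the collapsing of UMIs and the handling of reads that match several genes are not given in the sources used here. The deposited values are whole-number UMI counts per gene symbol, without normalization. No column of another series was present.

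The counts went into edgeR 4.0.16 (R 4.3.3). filterByExpr by group left 4720 of 23481 genes (95.7% of UMIs). TMM factors scaled the libraries, and 1 quasi-likelihood model with a term per group was fitted to all libraries (128 residual degrees of freedom, common biological coefficient of variation 10.3%). Tests are two-sided F-tests, adjusted by Benjamini-Hochberg over all tested genes within each contrast. Calls against Ctrl and above or below single ligands or pairs need an adjusted p under 0.05 and a log2 difference of at least 1, average additions at least 0.5, and interactions and single ligands against each other the adjusted p alone. CPM use the TMM-scaled totals, with a prior count of 2 on the log2 scale. Alternatives were other scalings, no filter, thinning to 46564 UMIs, DESeq2 1.42.0, a replicate block, leaving out replicates and, added after seeing the data, both lysozymes as 1 gene and leaving out 8 libraries. No libraries were identical. The pipeline was tested on simulated counts with known changes.

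The genes, the related lists and the marker lists were chosen with earlier results of these data known. Named from each list were up to 4 genes called for a single ligand with the largest absolute log2 fold change, where either group averaged 20 CPM or more. For each of the 7 genes, the highest and lowest combination, up to 3 calls of each kind and the 3 genes with the nearest pattern were named. Promoter windows and gene positions are from RefSeq (GRCm38.p6), with all 7 genes matched.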

Additional observations from a re-analysis of the deposited data

Results flagged for a closer look

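A test of the difference itself found that the effect of 1 ligand depended on whether another was present in 13 of 147 pair cases among the 7 genes. In 4 of 245 triplet cases, the interaction of a pair depended on whether the third ligand was present. Of the pair cases 11 were negative and 2 positive, where 3.5% and 1.08% of all gene and pair tests were. All 4 triplet cases were positive, as were 0.803% of all gene and triplet tests, while 0.13% were negative. For Saa3 the pair interactions were -4.29 (PAM + CpGB), -3.75 (LPS + CpGB), -3.63 (PAM + LPS), -1.49 (Zymosan + CpGB), -1.27 (PAM + cGAMP), -1.06 (cGAMP + CpGB) and -1.0 (PAM + Zymosan) on the log2 scale. In each of these pairs Saa3 was lower than the sum of the single effects. With PAM + cGAMP the mean of Saa3 was 3944 CPM, where PAM alone had 12037, and with Zymosan + CpGB it was 3589 CPM, where CpGB alone had 7605. For Lcn2 the interactions were -3.58 (PAM + LPS), -3.03 (PAM + CpGB) and -2.53 (LPS + CpGB).

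S100a8 gave -1.11 for PAM + LPS, with 319 CPM in PAM, 263 in LPS and 221 in the pair. This call was kept in 5 of 9 other fits and lost with RLE factors, after thinning and without replicate 1 or 3 of every group. Lyz2 gave 0.42 for LPS + SeV and 0.43 for LPS + cGAMP, and both calls were lost without any 1 replicate of every group, without the filter on low counts or without the 8 libraries that stand apart. The means were 6663 and 6221 CPM in these pairs and 6186 CPM with LPS alone. The three-way interactions were 3.27, 1.61 and 1.52 for Saa3 with PAM + LPS + CpGB, PAM + Zymosan + CpGB and LPS + Zymosan + CpGB, and 2.82 for Lcn2 with PAM + LPS + CpGB. These triplets stood at 7163, 8323 and 4657 CPM of Saa3 and 549 CPM of Lcn2.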

How the results depend on the processing

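Leaving out a replicate of every group or 1 Ctrl library gave 49 to 49 conditions higher than Ctrl for Saa3, 49 to 54 for Lcn2, 24 to 36 for Slpi, 30 to 46 lower for Lyz1, 37 to 52 lower for Lyz2, 0 to 3 for S100a8 and 0 to 0 for S100a9. S100a8 reached 3 without replicate 2 of every group, 1 without replicate 2 of Ctrl and 1 with no fold threshold. Leaving out 1 replicate of every group gave 7 to 11 negative and 0 to 0 positive pair interactions, 2 to 4 positive three-way interactions and 1 to 2 calls above both single ligands. The lysozyme counts were lowest without replicate 1. Positive pair interactions, 2 as reported, came to 4 with RLE factors, 5 with library size alone, 5 after thinning, and 0 with no filter or without the 8 libraries that stand apart. Calls above both single ligands fell to 1 with RLE factors, library size alone or thinning. Slpi was called in 18 conditions with library size alone and 16 after thinning. With no filter Lyz1 was lower in 6 and Lyz2 in 19 conditions, positive three-way interactions were 7 and calls above all pairs 1. Positive three-way interactions were also 7 without those 8 libraries, and thinning gave 1 negative one. The average effect of LPS on S100a9, 0.13 (adjusted p = 0.00586) as reported, changed sign to -0.01 (adjusted p = 0.928) with library size alone. The cause of these moves was not tested. Scaling shifted the median of all tested genes by -0.163 with RLE factors, -0.358 with library size alone, 0.239 with no filter and -0.261 after thinning. Over all tested genes, deviations of same-numbered libraries of different groups had a median r of 0.005, 0.011 and 0.008 for numbers 1, 2 and 3, so numbers were not taken as pairs. The 7 genes themselves were higher in replicate 1 than in replicate 2 in 38 to 48 of the 64 groups (Saa3 in 46), and replicate 2 was above replicate 3 in 14 (Lyz2), 15 (Lyz1), 20 (Lcn2) and 22 (Saa3) to 29 (S100a9). With the replicate block, 4 pair interactions were positive, Saa3 was called in 49 conditions, Lcn2 in 54 and Slpi in 29, and the lysozymes were lower in 55 and 57. PAM on Lyz1 (-0.22, adjusted p = 0.0437) and Lyz2 (-0.27, adjusted p = 0.0221) and Zymosan on Lyz1 (-0.25, adjusted p = 0.0359) passed with the block and not in the reported fit. Of the single values, 713 kept their side of the threshold, 54 lost it and 28 gained it. The lysozyme sum and the removal of 8 libraries were chosen after seeing the data. The Ctrl libraries, at 73431 UMIs on average, limit the precision of every comparison with Ctrl for genes of few UMIs such as Lcn2.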
